A study of Schizosaccharomyces pombe with 15 samples.

Results

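Long noncoding RNAs of the fission yeast Schizosaccharomyces pombe that were high after heat or hydrogen peroxide (H2O2) are described here. They were chosen from the 933 rows of the deposited gene table named SPNCRNA, by tags per 1000000 tags in the gene table (CPM) averaged over 3 libraries. A row was taken if its mean in heat or its mean in H2O2 was at least 2 CPM and at least 4 times its mean in YES. This gave 107 RNAs of 5886 genes in all, 99 by heat (10.6% of SPNCRNA rows) and 16 by H2O2 (1.71%), of which 91 met the rule by heat alone, 8 by H2O2 alone and 8 by both. The rule used the heat, H2O2 and YES values, so those values are given as a description with no test; nitrogen starvation against EMM took no part in it and was tested.

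All 15 libraries came from wild-type cells of strain h-S 972, 3 cultures to each of 5 groups, by CAGE (cap analysis of gene expression), which sequences the capped 5′ ends of RNA and so counts tags on a known strand at each transcription start. In the heat group, cultures in rich medium were moved to 39 °C for 15 min; in the H2O2 group, such cultures received 0.5 mM H2O2 for 15 min at 30 °C; the YES group is the unstressed rich-medium culture at 30 °C. For the stressed cultures the labels give the medium both as YES and as YEL. In the nitrogen-starved group, cells were filtered out of EMM2, a defined minimal medium, and kept for 16 h at 30 °C in EMM2 without ammonium chloride; the EMM group is the unstarved culture. The libraries held 9665353 tags (YES 1) to 21760682 tags (H2O2 2) in genes, so that 3 tags, taken here as the floor for one library, equal 0.138 to 0.310 CPM.

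Fission yeast transcribes many long RNAs that encode no protein, a large share of them antisense to genes or back to back with a gene's promoter. The exosome, an exonuclease complex, and the nuclear RNA elimination machinery keep most of them scarce. Heat activates Hsf1, which binds heat shock elements made of inverted GAA units. Peroxide activates the Sty1 kinase, whose target Atf1-Pcr1 binds the cyclic AMP response element (CRE), and the AP-1-like factor Pap1.

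The heat RNAs carried an inverted pair of GAA units around their main start more often than other rows did. The spellings GAANNTTC and TTCNNGAA, which may overlap, were searched on both strands in the window from 250 bases before to 50 bases after the main start site. The main start is that of the cluster highest over the 5 groups, and in some heat RNAs another cluster led in heat. In SPNCRNA.1138, for example, 82.7% of heat tags came from another cluster, so its window does not describe the start used in heat. At least 1 of them lay in 51 of the 99 windows of RNAs chosen by heat (51.5%) and in 4 of the 16 windows of those chosen by H2O2 (25%), against 19.2% of 824 other SPNCRNA rows and 19.4% of 4871 protein-coding genes. TTCNNGAA alone was in 34.3% of the heat windows, against 9.71% of the other SPNCRNA rows, and GAANNTTC in 25.3%, against 10.9%. At least 2 such elements lay in 15 heat windows (15.2%), against 2.79% of the other SPNCRNA rows. These shares are descriptions of letters, not of binding.

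The elements were most frequent at one distance. In the bin from 100 to 51 bases before the start, 26 of 99 heat windows (26.3%) had an element centre, against 30 of 824 other SPNCRNA windows (3.64%) and 3.59% of protein-coding windows. In the next bin, to the base before the start, the share was 11.1%, against 4.25%. Between 500 and 101 bases before the start the heat RNAs had 3.03% to 9.09% per bin, against 2.79% to 4.85%. The widest gap there was from 200 to 151 bases before, 9.09% against 2.79%. From the start to 49 bases past it the share was 9.09%, against 3.52%, and from 50 to 99 bases past it 2.02%, against 3.64%. The curve of elements by distance is highest in the bin from 100 to 51 bases before the start.

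**Figure D1:**
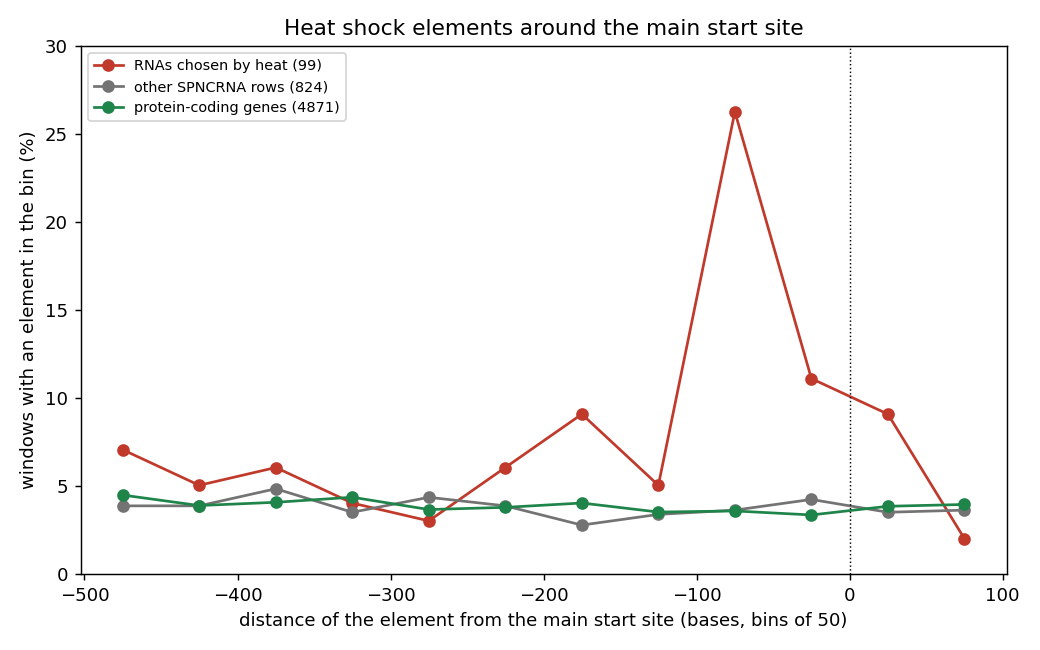
Share of windows (y axis, percent) with a heat shock element (GAANNTTC or TTCNNGAA) centred in each bin of 50 bases (x axis, distance from the main start site, negative before it), for the 99 RNAs chosen by heat, 824 other SPNCRNA rows and 4871 protein-coding genes. The heat RNAs reach 26.3% in the bin from 100 to 51 bases before the start, and the other 2 sets stay between 2.79% and 4.85% in every bin.

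The 6 heat RNAs with the highest heat mean among those 26 are shown from 120 bases before to 20 bases after the main start site, as RefSeq's ASM294v3 has them. Capitals mark a heat shock element, a CRE (TGACGT) or a Pap1-type site (TTACTAA) on either strand, or TATAAA on the strand shown alone. The capitals that open SPNCRNA.1529 belong to an element that begins before the strip.
SPNCRNA.1289 (III:2331213-2331353, plus strand): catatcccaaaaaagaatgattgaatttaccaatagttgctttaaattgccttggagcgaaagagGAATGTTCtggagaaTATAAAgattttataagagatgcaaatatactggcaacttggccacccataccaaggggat
SPNCRNA.1637 (II:3771057-3771197, plus strand): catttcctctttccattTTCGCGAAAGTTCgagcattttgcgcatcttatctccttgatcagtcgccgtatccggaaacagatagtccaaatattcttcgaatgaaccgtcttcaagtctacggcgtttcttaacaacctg
SPNCRNA.998 (I:4557442-4557582, minus strand): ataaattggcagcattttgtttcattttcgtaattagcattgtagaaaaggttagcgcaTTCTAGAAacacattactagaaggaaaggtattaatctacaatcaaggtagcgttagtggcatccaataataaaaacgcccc
SPNCRNA.1259 (III:2086392-2086532, minus strand): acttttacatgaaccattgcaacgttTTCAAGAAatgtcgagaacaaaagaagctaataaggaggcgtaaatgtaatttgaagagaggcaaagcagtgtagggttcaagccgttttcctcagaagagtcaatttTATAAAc
SPNCRNA.1529 (II:2572258-2572398, minus strand): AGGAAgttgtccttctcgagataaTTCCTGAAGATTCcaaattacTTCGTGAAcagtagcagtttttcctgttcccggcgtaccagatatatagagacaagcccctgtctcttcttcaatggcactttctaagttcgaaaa
SPNCRNA.1211 (III:1606839-1606979, plus strand): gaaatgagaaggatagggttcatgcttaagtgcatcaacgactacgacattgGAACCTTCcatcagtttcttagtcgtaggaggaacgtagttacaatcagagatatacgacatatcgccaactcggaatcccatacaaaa

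The RNAs chosen by H2O2 carried other letters. TGACGT, the core of the CRE, was in 6 of their 16 windows (37.5%), against 8.25% of the other SPNCRNA rows and 6.34% of protein-coding genes, and it was in 11.1% of the heat windows. TTACTAA was in 5 of the 16 (31.3%), against 11.4% of the other SPNCRNA rows and 12.1% of protein-coding genes. The palindrome TTACGTAA was in none of the 107 windows and in 0.607% of those of the other SPNCRNA rows. Of the 16 RNAs, 9 had TGACGT or TTACTAA in the stretch from 120 bases before to 20 after the start, and the 6 of these with the highest H2O2 mean are shown.
SPNCRNA.570 (II:1297535-1297675, minus strand): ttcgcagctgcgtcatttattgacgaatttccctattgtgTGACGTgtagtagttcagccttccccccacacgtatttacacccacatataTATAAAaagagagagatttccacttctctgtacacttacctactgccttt
SPNCRNA.1565 (II:2948468-2948608, minus strand): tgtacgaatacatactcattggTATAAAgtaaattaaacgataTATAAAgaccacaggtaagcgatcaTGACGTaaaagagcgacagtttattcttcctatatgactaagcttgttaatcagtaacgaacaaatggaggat
SPNCRNA.1280 (III:2287336-2287476, plus strand): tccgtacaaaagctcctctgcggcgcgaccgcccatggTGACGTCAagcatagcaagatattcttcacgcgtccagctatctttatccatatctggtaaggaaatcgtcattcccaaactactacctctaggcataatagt
SPNCRNA.892 (I:3166951-3167091, minus strand): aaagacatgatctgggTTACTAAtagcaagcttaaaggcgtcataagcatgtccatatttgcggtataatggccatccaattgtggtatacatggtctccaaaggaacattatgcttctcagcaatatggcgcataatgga
SPNCRNA.453 (III:59130-59270, plus strand): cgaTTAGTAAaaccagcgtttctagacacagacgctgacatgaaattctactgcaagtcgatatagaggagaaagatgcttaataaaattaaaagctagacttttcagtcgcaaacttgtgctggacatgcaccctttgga
SPNCRNA.472 (III:715442-715582, plus strand): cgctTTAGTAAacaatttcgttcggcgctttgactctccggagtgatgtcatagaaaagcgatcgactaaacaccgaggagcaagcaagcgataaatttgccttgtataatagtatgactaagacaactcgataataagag

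Heat was the condition in which these RNAs were high as a set, which follows from a rule that chose 99 of the 107 by heat. Their summed level was 2672 ± 174 CPM in heat and 680 ± 42.8 CPM in H2O2, against 248 ± 20.3 CPM in YES (SD, n = 3 each), and it was 596 ± 40.4 CPM in nitrogen-starved cells, against 181 ± 8.29 CPM in EMM. The median RNA had 11.1 CPM in heat and 1.56 CPM in H2O2, against 0.888 CPM in YES. In nitrogen-starved cells it had 1.00 CPM, against 0.599 CPM in EMM. All SPNCRNA rows together were also higher there, with a summed level of 42253 CPM, against 21563 CPM in EMM. The 4-fold rule was met in heat by 10.6% of SPNCRNA rows, against 2.85% of all other rows, and in H2O2 by 1.71%, against 1.66%.

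The set was scarce without stress. The YES mean was under 1 CPM for 59 of the 107 RNAs, and in 15 every YES library was at or under 3 tags. The heat mean was 10 or more times the YES mean (or its bound at the floor) for 51 of the 99 heat RNAs, and it was 20 CPM or more for 30 of them. All 99 had their lowest heat library above their highest YES library, which 28.6% of SPNCRNA rows had, and all 16 chosen by H2O2 had their H2O2 libraries above YES, which 19.4% had. Both counts follow from the rule.

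**Figure D2:**
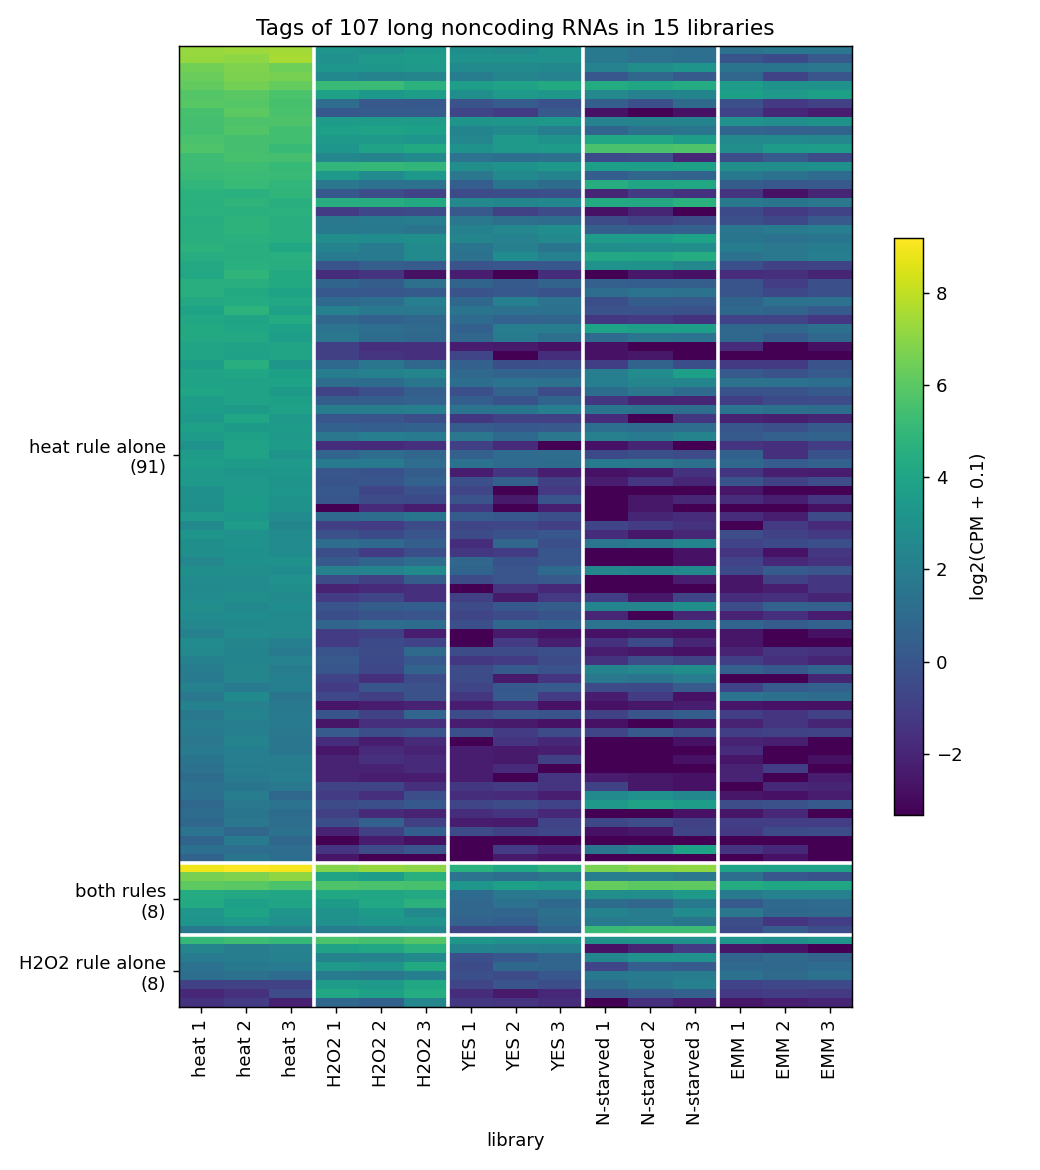
Level of each of the 107 RNAs (rows, by which stress met the rule and then by heat mean) in each of the 15 libraries (columns), as log2(CPM + 0.1) in colour. The 91 rows that met the rule by heat alone are bright in the 3 heat columns; the 8 at the bottom are brighter in the 3 H2O2 columns than in the heat columns.

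SPNCRNA.570 was the most abundant of them in heat and in H2O2. It had 462, 579 and 516 CPM in the heat libraries and 118, 148 and 128 CPM in the H2O2 libraries, against 25.5, 17.9 and 25.8 CPM in the YES libraries. Every heat library was thus above every H2O2 library, and every H2O2 library above every YES library. Its heat mean was 22.5 times and its H2O2 mean 5.68 times the YES mean. Its start lies 166 bases from that of SPNCRNA.1427, another of the 107, which runs the other way and had 7.32, 8.20 and 6.45 CPM in heat, against 0.207, 1.67 and 0.743 CPM in YES.

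Of the next 5 RNAs by heat mean, 3 had H2O2 libraries that overlapped with those of YES. SPNCRNA.1289, antisense to ubp12 (a ubiquitin protease gene), had 153, 165 and 175 CPM in heat, against 7.35, 6.26 and 8.38 CPM in YES. It had 9.11, 7.58 and 10.2 CPM in H2O2, where its libraries overlapped with those of YES. SPNCRNA.1527, with no coding gene near enough to be called a neighbour, had 146, 134 and 183 CPM in heat, against 8.07, 8.11 and 7.80 CPM in YES. Its H2O2 libraries, at 7.79, 10.7 and 11.5 CPM, overlapped with YES too. SPNCRNA.1673, which starts back to back with abp2 (an origin-binding protein gene), had 80.4, 103 and 98.7 CPM in heat, against 3.83, 5.02 and 4.61 CPM in YES; H2O2 gave 5.63, 4.69 and 5.04 CPM, again overlapping with YES.

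SPNCRNA.31 had 93.0, 108 and 84.5 CPM in heat, against 6.10, 6.17 and 5.68 CPM in YES. Its H2O2 libraries, at 9.45, 9.83 and 10.3 CPM, were above all YES libraries and far below all heat libraries. SPNCRNA.866, which starts 486 bases away on the other strand, had 23.5, 24.7 and 23.3 CPM in heat, against 5.07, 4.50 and 5.89 CPM in YES. Another such pair was SPNCRNA.998 and SPNCRNA.999, with starts 58 bases apart on opposite strands. SPNCRNA.998 had 60.1, 59.7 and 46.2 CPM in heat, against 0.828, 1.15 and 0.796 CPM in YES, and SPNCRNA.999 had 6.12, 12.1 and 5.16 CPM, against 0.517, 0.529 and 0.424 CPM. Heat and YES libraries did not overlap in either RNA.

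SPNCRNA.1637, antisense to the splicing factor gene cwf4, met the rule in both stresses. It had 99.5, 109 and 137 CPM in heat and 15.7, 12.9 and 24.7 CPM in H2O2, against 2.59, 2.20 and 2.76 CPM in YES. The 3 groups did not overlap. SPNCRNA.657, antisense to the cleavage and polyadenylation factor gene yth1, had 72.3, 95.0 and 75.7 CPM in heat and 35.5, 36.6 and 25.6 CPM in H2O2, against 12.7, 14.5 and 19.2 CPM in YES. Its H2O2 mean was 2.11 times the YES mean, under the rule's 4-fold.

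H2O2 levels were below heat levels in most of these RNAs, most of which were chosen by heat. Among the 99 heat RNAs the heat mean was above the H2O2 mean in 97, and all heat libraries were above all H2O2 libraries in 93. In the 8 chosen by H2O2 alone, all H2O2 libraries were above all heat libraries. The order of the 2 means follows from the rule in the 91 chosen by heat alone and in these 8. The libraries that did not overlap were counted on the same values that chose the RNAs. No share over all rows was taken for any of these counts, so nothing is read from them. The 8 chosen by both had similar levels in the 2 stresses only in part: SPNCRNA.1280, antisense to yme1 (a mitochondrial protease gene), had 67.8, 63.8 and 50.1 CPM in heat and 53.3, 47.7 and 46.1 CPM in H2O2, against 9.31, 13.1 and 10.4 CPM in YES. The ranges of heat and H2O2 overlapped there, as they did in SPNCRNA.1367, with 20.8, 18.3 and 15.9 CPM in heat and 18.1, 16.4 and 18.5 CPM in H2O2, against 1.97, 3.09 and 3.39 CPM in YES.

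**Figure D3:**
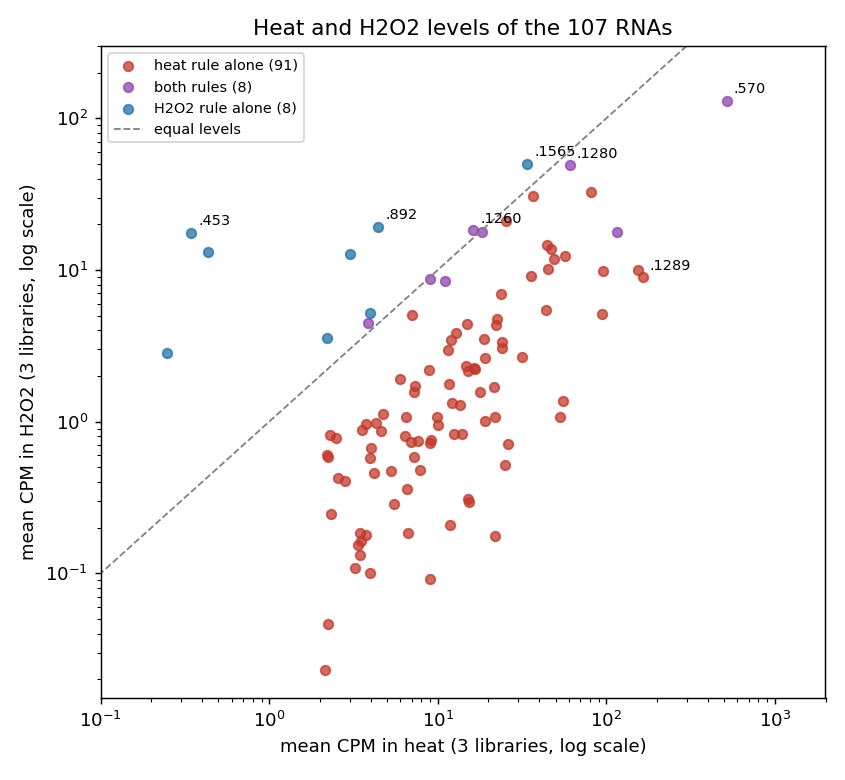
Mean CPM over 3 libraries in H2O2 (y axis, log scale) against heat (x axis, log scale) for each of the 107 RNAs, coloured by which stress met the rule; the dashed line marks equal levels, and numbers are SPNCRNA names. Of the 99 heat RNAs 97 lie below the line, and the 8 chosen by H2O2 alone lie above it. For RNAs chosen by a single stress the side of the line follows from the rule.

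The lowest ratio of heat mean to H2O2 mean among the 107 was that of SPNCRNA.453, which starts 417 bases from the start of the catalase gene ctt1, on the other strand. It had 17.2, 14.3 and 21.4 CPM in H2O2, against 0.207, 0.0882 and 0.159 CPM in YES, and 0.172, 0.245 and 0.617 CPM in heat. All YES libraries were at or under 3 tags, so its H2O2 mean was at least 72.1-fold the floor of a YES library. SPNCRNA.1179, antisense to atd3 (an aldehyde dehydrogenase gene), had 11.5, 10.7 and 17.1 CPM in H2O2, against 0.517, 0.882 and 0.690 CPM in YES. Its heat libraries, at 0.431, 0.428 and 0.449 CPM, were below every YES library.

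SPNCRNA.892, antisense to the translation initiation factor gene tif211, had 14.7, 17.6 and 25.6 CPM in H2O2, against 4.86, 4.32 and 4.14 CPM in YES, and 5.00, 3.86 and 4.49 CPM in heat. SPNCRNA.1565 had 49.1, 45.1 and 56.8 CPM in H2O2, against 9.73, 8.02 and 8.28 CPM in YES. Its heat libraries, at 32.0, 38.6 and 31.5 CPM, were between the 2 groups, and its heat mean was 3.93 times the YES mean, just outside the rule. SPNCRNA.1260 had 11.1, 17.8 and 26.3 CPM in H2O2 and 19.8, 13.3 and 15.4 CPM in heat, against 1.66, 2.56 and 1.75 CPM in YES; the 2 stresses overlapped.

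At the 4-fold boundary the heat rule took SPNCRNA.1570 at 4.08, SPNCRNA.1247 at 4.21 and SPNCRNA.1190 at 4.27 times YES. It left out SPNCRNA.1587 at 3.77, SPNCRNA.899 at 3.80 and SPNCRNA.1565 at 3.93 times YES. In H2O2 the closest inside were SPNCRNA.892 at 4.34, SPNCRNA.133 at 4.47 and SPNCRNA.1280 at 4.48 times YES, and the closest outside SPNCRNA.1506 at 3.54, SPNCRNA.1366 at 3.64 and SPNCRNA.658 at 3.79 times YES.

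The main start of 69 of the 107 RNAs (64.5%) lay inside a protein-coding gene on the opposite strand, called its antisense host, against 43.3% of 824 other SPNCRNA rows. A coding gene with its start at most 1000 bases upstream on the opposite strand, called a divergent neighbour, was beside 35 (32.7%), against 48.3%. A coding gene on the same strand that starts at most 1000 bases past the RNA's end was beside 35 (32.7%), against 29.4%, and 6 started inside a gene on the same strand. An RNA could be in several of these classes, and 6 were in none. The heat shock element was in 38 of 65 heat RNAs with an antisense host (58.5%), against 22.7% of other SPNCRNA rows with one, and in 13 of 34 without (38.2%), against 16.5%.

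Most divergent neighbours were themselves higher in heat. The neighbours' own counts were not used to choose the RNAs, and each coding gene was tested by edgeR's quasi-likelihood test with Benjamini-Hochberg adjustment over all genes. Of 33 divergent neighbours with counts, 21 were higher and 0 lower in heat than in YES at an adjusted p under 0.05, against 20.7% higher and 21.2% lower among 4880 coding genes. At an unadjusted p under 0.05 there was 1 lower, and DESeq2 and limma called 0 lower. Divergent neighbours of the other SPNCRNA rows were called higher in 27.1% and lower in 18.6%. The median log2 change was 1.06, against 0.01 for those other neighbours and -0.05 for all coding genes. In H2O2, 15 of the 33 were higher and 2 lower, against 11.4% and 9.51% of coding genes.

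The heat-shock protein gene hsp16 was one of these, 595 bases from SPNCRNA.1541. It had 3834, 5199 and 3696 CPM in heat, against 78.3, 59.1 and 68.1 CPM in YES (log2 change 6.12, SE 0.22, edgeR adjusted p = 4.35e-11). SPNCRNA.1541 itself had 7.50, 11.0 and 8.53 CPM in heat, against 0.310, 0 and 0.106 CPM in YES, where each library was at or under 3 tags. On the same strand, SPNCRNA.1542 starts 1577 bases from SPNCRNA.1541 and had 25.6, 24.2 and 28.6 CPM in heat, against 0.621, 0.705 and 0.743 CPM in YES. In H2O2, hsp16 and both RNAs stayed low: hsp16 had 99.8, 96.2 and 106 CPM and an edgeR adjusted p of 0.0521 against YES.

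Catalase was the matching case in H2O2. The gene ctt1, whose enzyme breaks down H2O2, had 1994, 1665 and 1882 CPM in H2O2 and 595, 477 and 435 CPM in heat, against 45.9, 45.5 and 53.9 CPM in YES. Its log2 change was 5.24 in H2O2 (SE 0.15, edgeR adjusted p = 4.55e-12) and 3.55 in heat (SE 0.14, edgeR adjusted p = 8.49e-11). Its partner SPNCRNA.453 had a heat mean of 0.345 CPM, against 0.151 CPM in YES. The peroxiredoxin gene tpx1, 384 bases from SPNCRNA.1260, was higher in both stresses, with log2 changes of 2.01 (heat) and 2.11 (H2O2) (SE 0.14 each, edgeR adjusted p = 1.85e-08 and 3.31e-08). SPNCRNA.1259 starts 309 bases from SPNCRNA.1260 on the other strand, and its own divergent neighbour bxi1 was higher by 3.82 in heat (SE 0.33, edgeR adjusted p = 2.66e-07).

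Values of some other divergent partners, chosen after they were seen, follow. The trehalose-6-phosphate synthase gene tps1, beside SPNCRNA.911, was higher in heat by 2.80 on the log2 scale (SE 0.14, edgeR adjusted p = 9.04e-10). The metallothionein gene zym1, beside SPNCRNA.821, was higher in heat by 3.80 (SE 0.24, edgeR adjusted p = 6.20e-09). The drug transporter gene bfr1, beside SPNCRNA.472, had 168, 194 and 293 CPM in H2O2, against 18.3, 25.2 and 23.1 CPM in YES, and 17.8, 17.2 and 15.7 CPM in heat. SPNCRNA.472 followed in H2O2, with 10.3, 9.14 and 18.9 CPM, against 0.621, 1.76 and 1.59 CPM in YES. SPBC2A9.02, 104 bases from SPNCRNA.1565, was higher in H2O2 by 3.38 (SE 0.16, edgeR adjusted p = 1.27e-09) and in heat by 1.06 (SE 0.15, edgeR adjusted p = 4.38e-05). Some divergent neighbours were not called: cdc42, a polarity GTPase gene beside SPNCRNA.773, had a log2 change of -0.11 in heat (edgeR adjusted p = 0.696). That pair was set by the main start of SPNCRNA.773, at I:1915857. In heat 89.6% of its tags came from a start at I:1914873, which lies further from cdc42.

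**Figure D4:**
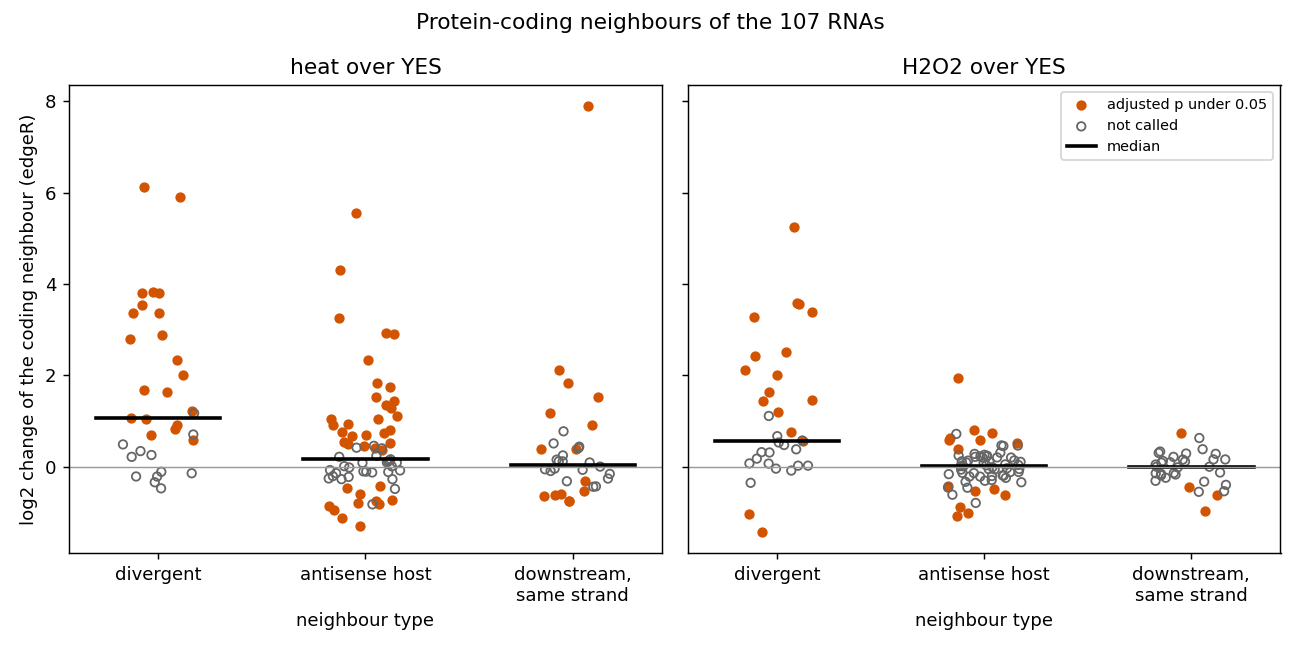
log2 change (y axis, edgeR) of each protein-coding neighbour of the 107 RNAs, by neighbour type (x axis), in heat over YES (left panel) and H2O2 over YES (right panel); filled points have an adjusted p under 0.05 and black bars are medians. In heat the divergent neighbours have a median of 1.06 and the antisense hosts of 0.16.

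Antisense hosts moved in both directions. In heat 28 of 67 were higher and 11 lower than in YES, against 16.8% higher and 24.5% lower among hosts of the other SPNCRNA rows; in H2O2 8 (11.9%) were higher (5 without YES replicate 1) and 7 (10.4%) lower, near the 11.4% and 9.51% of all coding genes. Their median log2 change was 0.16 in heat. The largest was the Hsp70 chaperone gene ssa1, host of SPNCRNA.811, with 7148, 6979 and 8132 CPM in heat, against 211, 158 and 161 CPM in YES (log2 change 5.56, SE 0.26, edgeR adjusted p = 4.87e-10). SPNCRNA.811 had 12.1, 23.1 and 9.87 CPM in heat, against 1.35, 0.705 and 0.743 CPM in YES; the sequence at its start has a near copy elsewhere in the genome, so its tags are uncertain.

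Further hosts that were higher in heat included gld1 (glycerol dehydrogenase, host of SPNCRNA.801), by 4.31 on the log2 scale (SE 0.21, edgeR adjusted p = 6.50e-10). The mating formin gene fus1, host of SPNCRNA.1026, was higher by 2.92 (SE 0.16, edgeR adjusted p = 1.52e-09). The checkpoint kinase gene cds1, host of SPNCRNA.1155, was higher by 2.35 (SE 0.13, edgeR adjusted p = 2.55e-09), and cph1, which encodes a subunit of a histone deacetylase complex and hosts SPNCRNA.687, by 1.84 (SE 0.13, edgeR adjusted p = 2.44e-08). Hosts that were lower in heat included pfl8, a cell-surface glycoprotein gene and host of SPNCRNA.607, at 19.1, 18.4 and 17.7 CPM, against 50.4, 48.2 and 55.8 CPM in YES. The exosome subunit gene rrp46, host of SPNCRNA.1377, fell by 1.12 on the log2 scale (SE 0.17, edgeR adjusted p = 7.90e-05). SPNCRNA.1529, the strip above with several GAA pairs, is antisense to orc1, an origin recognition gene: the RNA had 25.6, 24.8 and 24.9 CPM in heat, against 1.03, 0.441 and 0.637 CPM in YES, while orc1 had 20.2, 24.8 and 21.0 CPM, against 27.5, 26.7 and 35.2 CPM, and was not called (edgeR adjusted p = 0.138).

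Of 34 genes downstream on the same strand 8 (23.5%) were higher and 7 (20.6%) lower in heat, near the 20.7% and 21.2% of all coding genes, with a median log2 change of 0.05. In H2O2, 1 (2.94%) was higher and 3 (8.82%) were lower, against 11.4% and 9.51%.

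Start sites had the usual initiator letters. The main start was a purine after a pyrimidine in 102 of the 107 RNAs (95.3%), against 93.7% of the other SPNCRNA rows. The median main cluster was 176 bases wide, against 172.5, and the median GC content of the window was 36.7%, against 35%. Of the 107 RNAs 46 had 2 or more start clusters. With at least 10 tags in the stress and in YES, 43 RNAs could be compared for which cluster led, and in 15 of them the leading cluster in a stress was not the one that led in YES.

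The share moved most in SPNCRNA.773, where the cluster that led in heat held 89.6% of 182 heat tags, against 0 of 37 YES tags, which allows a share of up to 8.11%. In SPNCRNA.1377 the shares were 90.8% of 293 heat tags, against 23.1% of 39 YES tags, and in SPNCRNA.1555 they were 83.1% of 741 heat tags, against 20.2% of 99 YES tags. Some better-covered RNAs moved less. In SPNCRNA.1217 the cluster that led in heat held 59.8% of 2029 heat tags, against 38.9% of 334 YES tags. In SPNCRNA.728, which has 7 clusters, the cluster that led in heat held 66.5% of 1988 heat tags, against 18.1% of 420 YES tags. In SPNCRNA.1682 the shares were 96.4% of 1020 heat tags, against 48.4% of 182 YES tags. In SPNCRNA.1367 the cluster that led in H2O2 held 70.2% of 1014 H2O2 tags, against 25.4% of 118 YES tags. These shares pool the 3 libraries of a group and come from the values the rule used.

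Nitrogen starvation against EMM was the comparison that the rule did not use. Of the 107 RNAs, 62 had enough tags in these 2 groups to pass the filter on low counts with no other library in the fit. In that fit edgeR's quasi-likelihood test called 33 higher and 9 lower in nitrogen-starved cells at an adjusted p under 0.05 (53.2% and 14.5% of the 62). These shares were near those of all SPNCRNA rows in the same fit, 55.1% higher and 17.0% lower, while all genes had 33.6% and 31.2%. The median log2 change was 0.79, against 0.83 over SPNCRNA rows. An RNA at the floor in one of the 2 groups passes only by being higher in the other, so these shares describe the RNAs that passed and not the whole set. The test sums all start clusters of an RNA, and a rise may come from another start than in heat. In SPNCRNA.1206, called higher, 99.0% of starved tags came from a cluster with 0.198% of heat tags. In SPNCRNA.1138, also called higher, the cluster with 82.7% of heat tags held 1.96% of starved tags.

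The fit of all 15 libraries, which pools the spread over the 5 groups, tested all 107, but the other 45 passed its filter only through the libraries in which they were chosen to be high. It called 39 higher and 28 lower and did not call 40, against 35.7% higher and 32.9% lower of all genes and 54.0% and 19.6% of SPNCRNA rows. Of those 45 it called 1 higher and 16 lower, so its lower calls lie mostly among RNAs with too few tags here, and its totals say little about the set. In all, 20 RNAs had at most 3 tags in each EMM library, 27 had at most 3 in each nitrogen-starved library, and 14 of these had both. Its lower calls were 20 (with 47 higher) when scaled by library totals alone and 56 (with 27 higher) with limma on the authors' log2 values. The p-values of single RNAs below come from the fit of 15 libraries.

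All 8 RNAs chosen by both stresses passed the filter in the fit of 2 groups. There 5 were called higher (62.5%) and 0 lower, against 55.1% and 17.0% of all SPNCRNA rows. The fit of 15 libraries called 7 higher (87.5%) and 0 lower, against 54.0% and 19.6%. A set of 8 RNAs is small for reading such shares. In the fit of 15 libraries 0 were lower also at an unadjusted p under 0.05, and DESeq2 and limma called 0 lower. Of the 34 with an antisense host that passed, 20 were higher and 4 lower in the fit of 2 groups (58.8% and 11.8%), against 51.3% and 21.7% of SPNCRNA rows with one. Of the 28 without, 13 were higher and 5 lower (46.4% and 17.9%), against 57.7% and 13.4%.

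**Figure D5:**
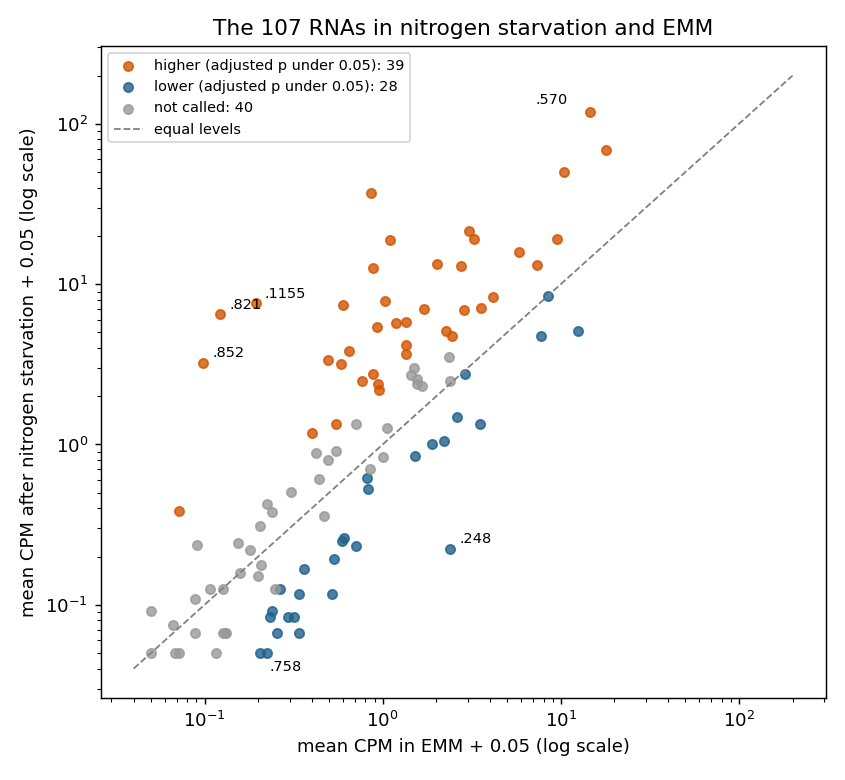
Mean CPM + 0.05 over 3 libraries in nitrogen-starved cells (y axis, log scale) against EMM (x axis, log scale) for each of the 107 RNAs, coloured by edgeR call; the dashed line marks equal levels and numbers are SPNCRNA names. The calls are those of the fit of 15 libraries; the 39 higher include SPNCRNA.570, the most abundant, and many of the 28 lower lie at the low end, where 45 RNAs have too few tags for a fit of these 2 groups alone.

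Among the RNAs that rose most was SPNCRNA.821, with 5.94, 7.95 and 5.52 CPM in nitrogen-starved cells, against 0.0664, 0.0551 and 0.0967 CPM in EMM. Each EMM library was at or under 3 tags, so the mean was at least 38.1-fold the EMM floor (edgeR adjusted p = 5.88e-08). Its divergent neighbour zym1 had 938, 937 and 1198 CPM, against 19.9, 12.4 and 15.2 CPM (log2 change 5.56, SE 0.26, edgeR adjusted p = 1.64e-10). SPNCRNA.1155, antisense to cds1, had 2.90, 4.79 and 15.0 CPM, against 0.266, 0.165 and 0 CPM in EMM (log2 change 5.31, SE 0.77, edgeR adjusted p = 2.25e-05). Starved library 3 was well above the other 2. SPNCRNA.852, antisense to the telomere protein gene rif1, had 3.10, 2.72 and 3.73 CPM, against 0, 0 and 0.145 CPM in EMM, at least 18.7-fold the floor (edgeR adjusted p = 4.39e-06).

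SPNCRNA.607, antisense to pfl8, was far higher in starvation than in either stress that chose it. It had 35.5, 37.7 and 37.3 CPM in nitrogen-starved cells, against 0.598, 1.16 and 0.677 CPM in EMM (log2 change 5.03, SE 0.30, edgeR adjusted p = 2.27e-09), and its heat mean was 3.88 CPM. Over the same comparison pfl8 fell by 1.50 on the log2 scale (SE 0.13, edgeR adjusted p = 8.38e-08). SPNCRNA.1405, antisense to the splicing factor gene prp2, had 21.9, 16.1 and 18.2 CPM, against 1.20, 0.937 and 1.02 CPM in EMM (log2 change 3.71, SE 0.22, edgeR adjusted p = 2.74e-09). The libraries of the 2 groups did not overlap in either RNA. SPNCRNA.570 rose as well, with 102, 122 and 133 CPM, against 15.3, 14.1 and 14.1 CPM (log2 change 2.58, SE 0.17, edgeR adjusted p = 8.18e-09).

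RNAs called lower were mostly near the floor in starved cells: 21 of the 28 had a starved mean under 1 CPM. SPNCRNA.248, antisense to SPAC27D7.11c, had 0.102, 0.368 and 0.0511 CPM in nitrogen-starved cells, against 2.66, 2.37 and 2.03 CPM in EMM (log2 change -4.30, SE 0.56, edgeR adjusted p = 7.57e-06). Its host fell with it, at 21.8, 25.0 and 22.7 CPM, against 203, 299.7 and 201 CPM (edgeR adjusted p = 2.22e-09). The other 4 of the 5 largest falls had too few tags to enter the fit of 2 groups, and their values are given with no test. SPNCRNA.1529 had 0.0508, 0.147 and 0 CPM, against 0.598, 0.331 and 0.484 CPM in EMM, at least 2.68-fold lower at the floor. SPNCRNA.616 had 0, 0 and 0.0511 CPM, against 0.465, 0.165 and 0.242 CPM in EMM, and SPNCRNA.750 had 0, 0 and 0.0511 CPM, against 0.266, 0.0551 and 0.290 CPM. SPNCRNA.758 had no tag in any starved library, against 0.0664, 0.110 and 0.290 CPM in EMM, and its EMM mean was itself below the starved libraries' floor, so no fold is given.

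The most abundant heat RNAs did not move as one in starvation. SPNCRNA.1527 rose by 1.23 on the log2 scale (SE 0.26), SPNCRNA.1637 by 1.06 (SE 0.36), SPNCRNA.31 by 0.81 (SE 0.20) and SPNCRNA.657 by 0.55 (SE 0.20), with edgeR adjusted p of 0.000688, 0.0163, 0.00189 and 0.0235. SPNCRNA.1289 had -0.53 (SE 0.19, edgeR adjusted p = 0.023, but 0.0826 in the fit of 2 groups), with overlapping libraries. In CPM, which lack the scaling of the fit, its means were near each other, 2.70 in nitrogen-starved cells and 2.83 in EMM. SPNCRNA.1673 had -0.17 (SE 0.35, edgeR adjusted p = 0.668). Of the RNAs high in H2O2, SPNCRNA.1280 rose by 1.48 (SE 0.14, edgeR adjusted p = 3.96e-07), SPNCRNA.1367 by 0.56 (SE 0.18, edgeR adjusted p = 0.0131, but 0.0556 in the fit of 2 groups) and SPNCRNA.453 by 1.21 (SE 0.37, edgeR adjusted p = 0.00858). SPNCRNA.453 had -0.33 with limma on the authors' log2 values. SPNCRNA.1565 had -0.47 (SE 0.15, edgeR adjusted p = 0.011), with overlapping libraries. Its mean CPM hardly differed, 8.36 in nitrogen-starved cells and 8.45 in EMM, so this change too appears only after the scaling of the fit. SPNCRNA.1260 had 0.04 (SE 0.34, edgeR adjusted p = 0.915). SPNCRNA.892 had too few tags to enter the fit of 2 groups.

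In starvation 33 pairs of an antisense RNA and its host entered the fit of 2 groups. Of these 7 had the RNA higher and the host lower and 1 the RNA lower and the host higher, while 5 had both higher and 2 both lower. In 7 others the RNA was higher and the host not called, and in 5 neither was called. In that fit 51.3% of all SPNCRNA rows with an antisense host were higher and 21.7% lower, so higher was the more frequent call for such RNAs in general. No share over other pairs was taken, and a link between RNA and host was not tested. In the fit of 15 libraries, divergent neighbours were higher in 19 of 33 and lower in 4 (57.6% and 12.1%). The shares were 38.5% and 32.3% for divergent neighbours of the other SPNCRNA rows, and 31.7% and 35.9% for all coding genes.

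Regulators of the stress response were higher in part. Of 15 listed genes, 8 were higher and 2 lower in heat than in YES, 6 higher and 1 lower in H2O2, and 13 higher and 1 lower in nitrogen-starved cells than in EMM. These were 53.3%, 40% and 86.7% higher, and over all genes 22.2% were higher and 20.1% lower in heat, 11.3% and 8.78% in H2O2, and 35.7% and 32.9% in starvation. The Hsf1 gene hsf1 was higher by 0.66 in heat (SE 0.12, edgeR adjusted p = 0.00038) and by 0.54 in H2O2 (SE 0.12, edgeR adjusted p = 0.00392). The gene atf1, of the CRE-binding factor, was higher by 1.27 in heat (SE 0.24, edgeR adjusted p = 0.000537) and by 1.46 in H2O2 (SE 0.24, edgeR adjusted p = 0.000341). The Sty1-activating kinase gene wis1 fell by 1.06 in heat (SE 0.12, edgeR adjusted p = 4.18e-06).

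Genes of RNA surveillance and decay were lower where they were called in the stresses. Of 19, 0 were higher and 10 lower in heat than in YES (52.6% lower, against 20.1% of all genes), and 0 higher and 7 lower in H2O2 (36.8%, against 8.78%); DESeq2 and limma also called 0 higher in both, and at an unadjusted p under 0.05 there was 0 higher in heat and 1 in H2O2. The median log2 change was -0.45 in heat and -0.37 in H2O2, against -0.03 and -0.02 over all genes. The exosome helicase gene mtr4 fell by 1.04 in heat (SE 0.11, edgeR adjusted p = 2.33e-06) and by 0.93 in H2O2 (SE 0.11, edgeR adjusted p = 1.68e-05). The exosome nuclease gene dis3 fell by 0.45 in heat (SE 0.13, edgeR adjusted p = 0.01), and rrp6 had -0.35 in heat (SE 0.17, edgeR adjusted p = 0.121) and fell by 0.72 in H2O2 (SE 0.17, edgeR adjusted p = 0.00697). The H2O2 count was 3 to 4 without H2O2 replicate 1, 2 or 3 or YES replicate 1 or 3. In starvation 4 of the 19 were higher and 8 lower (21.1% and 42.1%), against 35.7% and 32.9% of all genes. The part of these genes in the levels of the noncoding RNAs was not tested.

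Of 14 chromatin factors known to limit transcription inside genes, 1 was higher and 4 lower in heat (7.14% and 28.6%, against 22.2% and 20.1% of all genes), with 3 called in all without heat replicate 3 and 2 without YES replicate 1. The one that was higher was cph1, described above as a host. In H2O2 edgeR called 0 (2 lower at an unadjusted p under 0.05), DESeq2 called 1 lower and limma 0, against 11.3% higher and 8.78% lower of all genes. In nitrogen-starved cells 3 were higher and 7 lower than in EMM (21.4% and 50%), against 35.7% and 32.9% of all genes.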

How the data were processed

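CAGE libraries were prepared from total RNA of 3 cultures a group, per the labels' protocols. The submitters' processing notes name CASAVA 1.6, Bowtie 0.12.7 and the build ASM294v2; how tags were clustered and assigned to genes is not given in the sources used here. The deposited gene and start-cluster tables hold raw tag counts (9665353 to 21760682 per library in genes), and a deposited companion table holds the authors' log2 normalized values. Here CPM is a count divided by its library's total over genes, with no filter. The 107 RNAs, the neighbour classes and the gene lists were chosen with earlier results of these data known.

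All 15 libraries entered one edgeR 4.0.16 quasi-likelihood fit (TMM scaling, filterByExpr, robust) on the deposited counts, with Benjamini-Hochberg adjustment over all 5886 genes and a threshold of 0.05. The procedure was tested on simulated counts. DESeq2 1.42.0 and limma 3.58.1 (on the authors' log2 values) were alternatives, as were a fit of the 2 groups compared alone (given first for starvation, since its filter sees no stress library), other scalings, filters, motif windows, neighbour distances and leaving out each replicate in turn. Where a group's libraries all held at most 3 tags, a fold is a bound against 3 tags per library. Intervals and floors cover counting error only.

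Start clusters were joined to 5875 genes by finding the run of neighbouring clusters whose counts sum to the gene's. The main start is the peak of the cluster with the highest sum of the 5 group means. Annotation and sequence are RefSeq's ASM294v3; the pyrimidine-purine step fell on the deposited peak in 85.1% of 13003 clusters, against 4.71% and 2.84% when shifted by 1 base either way, and in at least 74.4% in each of 125 windows of 100000 bases, so coordinates were used as they stand. Of the 107 RNAs 100 matched an annotated gene. A near copy is a second place in the genome that matches the 27 bases from the start with at most 2 mismatches. Named RNAs are the 8 with the highest heat mean, the 8 with the highest H2O2 mean, and the 5 largest rises and 5 largest falls in nitrogen starvation among called RNAs whose libraries did not overlap, with those beside the rule's threshold; neighbours and start pairs named beyond these were chosen after their values were seen.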

Additional observations from a re-analysis of the deposited data

How the results depend on the processing

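The 107 RNAs were 104 to 111 with each replicate left out. The count by H2O2 was 7 at a 6-fold rule and 9 when every H2O2 library had to be 4 times every YES library. With the replicate number as a block, 39 and 28 RNAs were again called higher and lower in nitrogen starvation. Same-numbered libraries correlated from 0.07 to 0.31 in that comparison, and different-numbered ones from -0.26 to 0.12. In heat and H2O2 against YES same-numbered libraries correlated from -0.22 to 0.11. The main fit did not take the numbers as pairs, and only the fit with the block allows for them. RNAs called higher in starvation ranged from 32 to 38 and lower from 23 to 28 with a replicate left out; lower calls were 56 with limma on the authors' values and 9 with only the 2 groups fitted. Library totals alone moved the median of all genes from 0.04 to 0.49 in starvation and from -0.03 to -0.21 in heat (log2), and gave 38 antisense hosts higher and 11 lower and 1 divergent neighbour lower in starvation. A minimum log2 change of 1 left 14 antisense hosts higher and 9 lower in starvation, 15 and 2 in heat and 1 and 2 in H2O2, and 1 divergent neighbour lower in starvation. It left 5, 3 and 0 surveillance genes called in starvation, heat and H2O2, 2 and 1 chromatin factors in starvation and heat, and 7, 6 and 4 stress regulators in the 3 comparisons. Antisense hosts higher in H2O2 were 5 to 7 with a replicate left out, surveillance genes called in H2O2 were 3 to 5 (3 with only the 2 groups fitted) and chromatin factors called in heat 2 to 5. Divergent neighbours lower in heat were 3 at 2000 bases; lower in H2O2 they were 1 at 500 and 5 at 2000 bases. The heat windows with a heat shock element were 61.6% from 500 bases before to 50 after, against 35.3% of other SPNCRNA rows, and 36.4% from 150 before to the start, against 10.2%. Of 340 alternative values for the 23 named RNAs in starvation, 314 kept their direction and side of the threshold, 23 lost and 2 gained the call, and SPNCRNA.453 turned to -0.33 with limma on the authors' values. The cause was not tested except where fewer genes or samples entered. Counts at the floor limit the 15 RNAs with at most 3 tags in every YES library; CPM are relative to a library's total, so a change in total RNA cannot be told apart from one in these RNAs.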
